A study of Felis catus with 6 samples.

Results

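TGM2 and TGM5 are 2 of the transglutaminases, enzymes that join glutamine and lysine side chains of proteins into covalent cross-links and need calcium to do so. Both genes were chosen by the opposite direction of their FPKM difference between lesions of feline chronic gingivostomatitis (FCGS) and healthy oral mucosa, so those differences are given as a description without a test. They are 2 of 1929 identifiers with a gene name, among 21529 Ensembl identifiers measured. RNA came from 3 FCGS cats, named Bart, Jerome and Sadie in the labels, each with 1 biopsy of an FCGS lesion (diseased, inflammatory) and 1 of healthy mucosa from the same animal (healthy, normal), for 6 libraries in all. All 3 cats carried the disease, so the healthy biopsies are unaffected sites of diseased animals and not tissue of healthy cats. The labels call the tissue gingival, whereas by the paper's methods the sites lay next to the palatoglossal folds, in cats without teeth that received buprenorphine. Neither age nor sex is given for these 3 cats in the labels.

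TGM2, tissue transglutaminase, is made by many cells, among them endothelial cells, fibroblasts and macrophages. It cross-links fibronectin and other matrix proteins outside the cell, binds integrins, and can act as a G protein inside the cell. TGM5 belongs to stratified epithelium, where it cross-links precursor proteins of the cornified envelope, the insoluble shell of the outermost keratinocytes. In humans, loss of TGM5 causes acral peeling skin syndrome. In oral mucosa, the degree of cornification differs between sites.

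TGM2 (ENSFCAG00000004808) measured 206 FPKM in the lesion of Bart, 161 FPKM in that of Jerome and 124 FPKM in that of Sadie, against 15.9, 23.8 and 9.94 FPKM in their healthy mucosa. FPKM is a level corrected for transcript length and library size, as the authors deposited it. The 3 lesions were all above the 3 healthy biopsies, and the lowest lesion was 5.20 times the highest healthy value. Over the 3 cats, TGM2 averaged 164 ± 41.5 FPKM (SD) across lesions and 16.6 ± 6.95 FPKM across healthy biopsies. Within a cat, the lesion was 12.97 times the healthy level in Bart, 6.76 times in Jerome and 12.4 times in Sadie. On the log2 scale, the mean difference was 3.36 ± 0.53 (SD over 3 cats), a 10.3-fold higher level.

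TGM5 (ENSFCAG00000007264) measured 0.0813 FPKM in the lesion of Bart, 0.425 FPKM in that of Jerome and 0.556 FPKM in that of Sadie, against 7.50, 2.86 and 6.53 FPKM in their healthy mucosa. Here too the groups did not overlap, and the lowest healthy value was 5.14 times the highest lesion value. Its mean was 0.354 ± 0.245 FPKM (SD, n = 3) across lesions and 5.63 ± 2.45 FPKM across healthy biopsies. The healthy level was 92.2 times the lesion level in Bart, 6.73 times in Jerome and 11.7 times in Sadie. All 3 lesion values lay below 1 FPKM, the level to which the study raised lower values before it took log2. With that floor the mean log2 difference of TGM5 was -2.38 ± 0.75 (SD over 3 cats), a 5.19-fold lower level. Without it the difference was -4.28 ± 1.99, a 19.4-fold lower level, so the floored value understates the change. Exact read totals per library were not at hand, and steps among values under 0.1 FPKM put the lesion of Bart, with the lowest TGM5, at 1.41 times the depth of the lesion of Sadie. In whole biopsies, fewer cells of a type and less RNA per cell cannot be told apart.

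**Figure D1:**
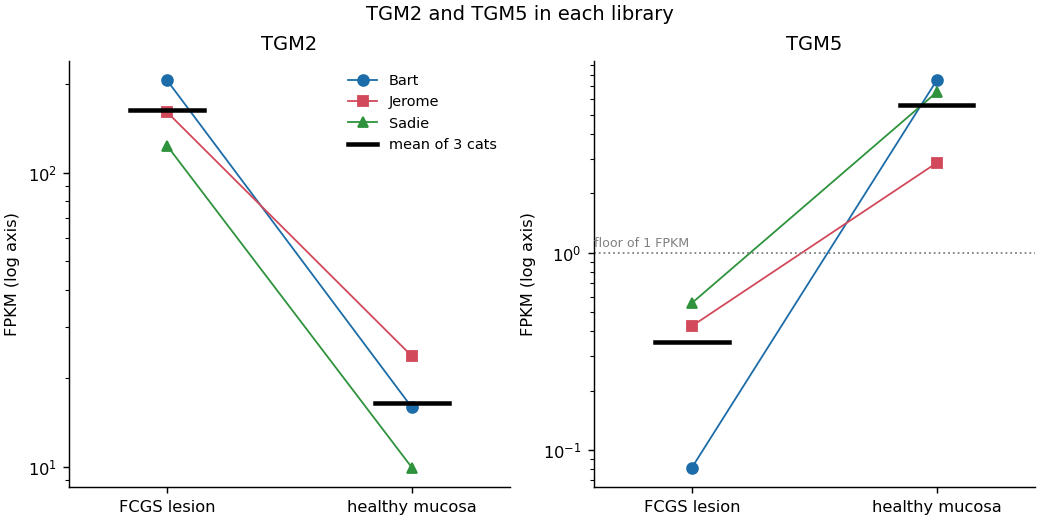
FPKM of TGM2 (left) and TGM5 (right) on log axes in each FCGS lesion and healthy biopsy, with 1 line per cat and black bars for the mean of 3 cats. All 3 TGM2 lines fall to the right and all 3 TGM5 lines climb, and TGM5 lies under the dotted floor of 1 FPKM in every lesion.

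The cats kept neither the order of TGM2 nor that of TGM5 between tissues. Among lesions, Bart had the highest TGM2 and the lowest TGM5, whereas among healthy biopsies Jerome had the highest TGM2 and the lowest TGM5. Jerome therefore showed the smallest difference of both genes, with log2 differences of 2.76 for TGM2 and -1.52 for TGM5 (floored at 1 FPKM). Within lesions the highest TGM2 value was 1.67 times the lowest and the coefficient of variation was 25.3%. Within healthy mucosa the highest TGM2 value was 2.39 times the lowest. TGM5 spread more within lesions, by 6.84 times between the highest and lowest, than within healthy mucosa, by 2.62 times.

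FPKM is a level per length, so both genes can be set side by side within a library. The ratio of TGM2 to TGM5 was 2540 in the lesion of Bart, 379 in that of Jerome and 222 in that of Sadie, against 2.12, 8.32 and 1.52 in the healthy mucosa of Bart, Jerome and Sadie. TGM2 was thus the higher of both in all 6 libraries, by far more in lesions. The change of this ratio within a cat was 1196-fold in Bart, 45.5-fold in Jerome and 146-fold in Sadie. No scaling of whole libraries can alter it. However, its size rests on TGM5 lesion values under 1 FPKM (0.0813 FPKM in Bart), for which no counting error was at hand. Among all 21529 identifiers of a library, TGM2 exceeded 96.2% to 97.4% in lesions and 67.2% to 80.7% in healthy mucosa. TGM5 exceeded 26.1% to 34.5% of identifiers in lesions and 49.9% to 61.8% in healthy mucosa.

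Of 10 genes of the transglutaminase family, 4 were in the study's symbol table at hand, TGM2, TGM5, TGM7 and F13A1. The symbol table lists only genes at least 2-fold different between tissues and the part at hand lacks the strongest falls, so TGM1, TGM3 and the others were not analysed here. F13A1, the catalytic subunit of coagulation factor XIII, which is also made by macrophages, measured 6.17, 2.89 and 4.62 FPKM in the lesions of Bart, Jerome and Sadie, against 1.33, 1.77 and 2.42 FPKM in their healthy mucosa. The groups did not overlap, but limma did not call the difference of 1.28 ± 0.39 in log2 units (standard error, limma adjusted p = 0.082). Across the 13327 identifiers tested, limma called 5.31% higher and 6.61% lower in lesions at an adjusted p under 0.05, or 11.9% in either direction (12.2% higher and 11.1% lower with the cat as a block). Among those with a name, it called 21.1% higher and 14.3% lower, or 35.4% in either direction (46.1% higher and 22% lower with the block). TGM7, a transglutaminase with little described function, was at 0.140, 0.0215 and 0.102 FPKM in the lesions of Bart, Jerome and Sadie, against 35.8, 0.0215 and 0.0367 FPKM in their healthy mucosa. A single library, healthy mucosa of Bart, thus held nearly all TGM7 signal, and the same library had the highest TGM5. The match of TGM7 to its identifier rests on this 1 value above the floor, and the gene was below the filter of the test. In the RefSeq annotation of the cat (F.catus_Fca126_mat1.0), TGM5 lies between TGM7 and CCNDBP1 among coding genes, and TGM2 lies elsewhere, between KIAA1755 and RPRD1B.

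Few genes of keratinocyte differentiation could be set beside TGM5. Of 104 genes of the cornified envelope and keratinocyte differentiation, 8 had a name, 4 fell, none rose and 4 passed in neither direction (limma, adjusted p under 0.05 over all identifiers). ALOXE3, a lipoxygenase that prepares the lipid coat of cornified cells, measured 0.203, 0.178 and 0.268 FPKM in the lesions of Bart, Jerome and Sadie, against 3.39, 5.13 and 7.41 FPKM in their healthy mucosa. Like TGM5, ALOXE3 was under 1 FPKM in every lesion, and its floored log2 difference was -2.34 ± 0.34 (standard error, limma adjusted p = 0.022). SPTLC3, a subunit of the enzyme that starts sphingolipid synthesis, fell to 1.70, 2.75 and 1.04 FPKM in the lesions of Bart, Jerome and Sadie, against 8.88, 8.92 and 8.30 FPKM in their healthy mucosa (log2 difference -2.36, adjusted p = 0.025). CAPN1, a calcium-dependent protease, had a log2 difference of -1.16 (adjusted p = 0.040) and KRT23, a keratin of epithelial cells, one of -2.21 (adjusted p = 0.048, but 0.070 with the cat as a block).

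The other 4 named genes of this list did not pass limma. NIPAL4, a membrane protein that is mutated in human ichthyosis, measured 0.611, 2.24 and 1.05 FPKM in the lesions of Bart, Jerome and Sadie, against 16.5, 8.84 and 2.25 FPKM in their healthy mucosa. The lowest healthy value of NIPAL4 lay next to the highest lesion value, and the difference was -2.37 ± 0.78 in log2 units (standard error, limma adjusted p = 0.098). S100A10, which partners annexin A2, had a log2 difference of -1.22 (adjusted p = 0.061, and 0.042 with the cat as a block), and KRT10, the keratin of cornifying cells, one of -1.02 (adjusted p = 0.19). KRT4, a keratin of mucosa that does not cornify, was the named gene in the other direction. It measured 8.99, 2534 and 569 FPKM in the lesions of Bart, Jerome and Sadie, against 2089 FPKM in the healthy mucosa of Bart, and was listed at 0 in that of Jerome and Sadie (adjusted p = 0.47). Over the 8 genes, KRT4 included, the median log2 difference was -1.71. The median was -0.07 over all 13327 identifiers tested, 1.26 over the 1929 with a name and -1.46 over the 637 named identifiers below 0. Named sets lack the genes that fell most. Of those 637, 43.2% passed limma (66.7% with the block), so 4 of 7 lower members is a count with few genes behind it.

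Few of the named partners and matrix substrates of TGM2 passed limma without the cat as a block, and most passed with it. Of 65 genes, 28 had a name, 3 rose, 2 fell and 23 passed in neither direction (20 rose and 2 fell with the cat as a block). Those that rose without the block were integrins, the receptors through which cells hold matrix and other cells. ITGA5, the alpha chain of the fibronectin receptor, measured 106, 44.5 and 43.0 FPKM in the lesions of Bart, Jerome and Sadie, against 22.4, 15.1 and 13.8 FPKM in their healthy mucosa. The groups did not overlap for ITGA5, and the difference was 1.81 ± 0.42 in log2 units (standard error, limma adjusted p = 0.044, but 0.071 after scaling to the sum of FPKM). ITGA4 (log2 difference 2.20, adjusted p = 0.020) and ITGB2 (log2 difference 2.35, adjusted p = 0.025), both abundant on leukocytes, were the other two.

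FN1, fibronectin, a main matrix substrate of TGM2, measured 400, 35.9 and 42.0 FPKM in the lesions of Bart, Jerome and Sadie, against 33.5, 8.99 and 7.90 FPKM in their healthy mucosa. The lesion of Bart stood far above the other lesions, and healthy mucosa of Bart nearly reached the lesion of Jerome. The difference of FN1, 2.66 ± 1.06 on the log2 scale (standard error), did not pass limma (adjusted p = 0.15) but did with the cat as a block (adjusted p = 0.023). MMP2, a protease of the matrix, was at 1.87 (adjusted p = 0.060). In the other direction, PLCD1, the phospholipase that TGM2 can activate as a G protein, fell to 26.9, 50.2 and 31.7 FPKM in the lesions of Bart, Jerome and Sadie, against 133, 173 and 245 FPKM in their healthy mucosa (log2 difference -2.35, adjusted p = 0.022). ANXA2, annexin A2, a calcium-dependent membrane protein abundant in epithelium, was lower too (log2 difference -1.72, adjusted p = 0.023). Of the 25 members above 0, 3 passed limma, against 31.5% of the 1292 named identifiers above 0. With the block 20 of the 25 passed, against 68.9% of those identifiers. The median log2 difference of the 28 genes, 3 of them below 0, was 1.75. It was 1.26 over all 1929 named identifiers and 1.61 over the 1292 above 0.

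TGM2 is one of several enzymes that stabilise matrix, and 4 of 13 named genes of collagen processing and cross-linking rose in lesions. This list, called the cross-linking genes here, holds 20 genes of both roles. Of these, 13 had a name, and all 13 had a log2 difference above 0 in every cat. In limma 4 rose, none fell and 9 passed in neither direction (10 rose with the cat as a block). Also of 1 direction in every cat were 27 of 28 partners and substrates and 7 of 8 cornified envelope genes. The share over all identifiers was not taken. PLOD3, which hydroxylates collagen lysines and attaches sugars to them, measured 70.5, 66.2 and 53.6 FPKM in the lesions of Bart, Jerome and Sadie, against 20.1, 20.3 and 15.3 FPKM in their healthy mucosa. Lesions and healthy biopsies lay far apart, and the difference was 1.78 ± 0.21 on the log2 scale (standard error, limma adjusted p = 0.019). LOXL3, a lysyl oxidase, was at a log2 difference of 1.48 (adjusted p = 0.031), ADAMTS14, a protease of procollagen, at 1.99 (adjusted p = 0.033), and PLOD1, a collagen lysyl hydroxylase, at 1.30 (adjusted p = 0.036, but 0.069 after scaling to the sum of FPKM). LOXL4, another lysyl oxidase, had a log2 difference of 1.44 (adjusted p = 0.061). The median of the 13 genes was 1.48, and 4 of 13 is close to the 31.5% of named identifiers above 0 that passed limma. With the block 10 of the 13 passed, against 68.9% of those identifiers. By level in FPKM, TGM2 was ranked among 17 genes, the transglutaminases and genes of collagen processing and cross-linking with a symbol at hand. It stood 3rd in the lesion of Bart and 2nd in the other lesions, against 9th, 3rd and 6th in the healthy mucosa of Bart, Jerome and Sadie. Genes without a symbol were left out of this rank. PCOLCE, which enhances procollagen processing, averaged 336 ± 176 FPKM (SD, n = 3) across lesions and 130 ± 10.5 FPKM across healthy biopsies, the highest mean of the 17 in both tissues. Its log2 difference was 1.25 (limma adjusted p = 0.073, and 0.045 with the cat as a block).

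**Figure D2:**
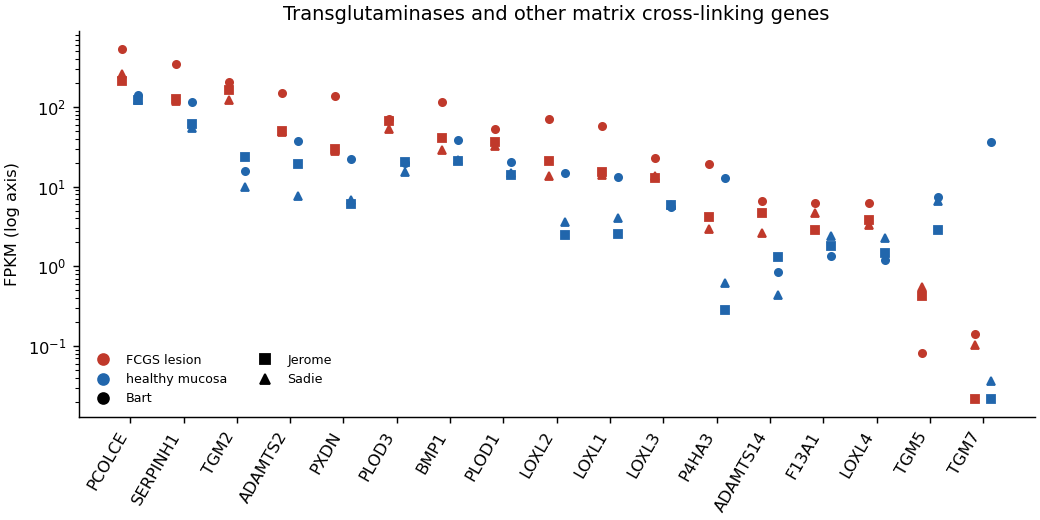
FPKM on a log axis of transglutaminases and genes of collagen processing and cross-linking, ordered by their mean in lesions, with FCGS lesions in red and healthy mucosa in blue and 1 symbol per cat. TGM2 stands 3rd by its lesion mean and TGM5 16th of 17, and the single high TGM7 value belongs to healthy mucosa of Bart.

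Signals known to induce TGM2 in cultured cells include TGF-beta, IL-6, TNF, IL-1 and retinoic acid. The list of 53 genes of these pathways also held HIF1A and genes of interferon gamma. Of the 53, 14 had a name, 1 rose, 2 fell and 11 passed in neither direction (8 rose and 3 fell with the cat as a block). Of the 9 above 0, 1 passed, against 31.5% of named identifiers above 0 (8 with the block, against 68.9%). Of the 5 below 0, 2 passed, against 43.2% of named identifiers below 0 (3 with the block, against 66.7%). TNFRSF1B, the second TNF receptor, measured 94.4, 112 and 68.8 FPKM in the lesions of Bart, Jerome and Sadie, against 13.1, 28.2 and 19.7 FPKM in their healthy mucosa (log2 difference 2.22, adjusted p = 0.023). The genes that fell without the block were receptors of retinoids. With the block, limma called RARG (adjusted p = 0.03), HIF1A (log2 difference -1.1, adjusted p = 0.028) and DHRS3 (log2 difference -1.31, adjusted p = 0.048) lower. Without it, HIF1A and DHRS3 did not pass (limma adjusted p = 0.18 and 0.15). RARG, the retinoic acid receptor of epithelium, fell to 24.2, 38.0 and 18.8 FPKM in the lesions of Bart, Jerome and Sadie, against 87.6, 121 and 193 FPKM in their healthy mucosa. RARG values did not overlap between tissues, and the difference was -2.30 ± 0.39 in log2 units (standard error, limma adjusted p = 0.025). RXRA, the partner receptor of RARG, had a log2 difference of -1.15 (adjusted p = 0.048, but 0.063 with the cat as a block and 0.083 after scaling to the sum of FPKM). IL6, an inflammatory cytokine, measured 1224, 328 and 25.0 FPKM in the lesions of Bart, Jerome and Sadie, against 118, 28.5 and 0.828 FPKM in their healthy mucosa. Healthy mucosa of Bart held more IL6 than the lesion of Sadie, and limma did not call the difference (log2 difference 3.85, adjusted p = 0.27), whereas it did with the cat as a block (adjusted p = 0.022). TNF (log2 difference 1.03, adjusted p = 0.069) and TGFBR2 (log2 difference 1.84, adjusted p = 0.11) passed only with the cat as a block (adjusted p = 0.031 and 0.037).

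**Figure D3:**
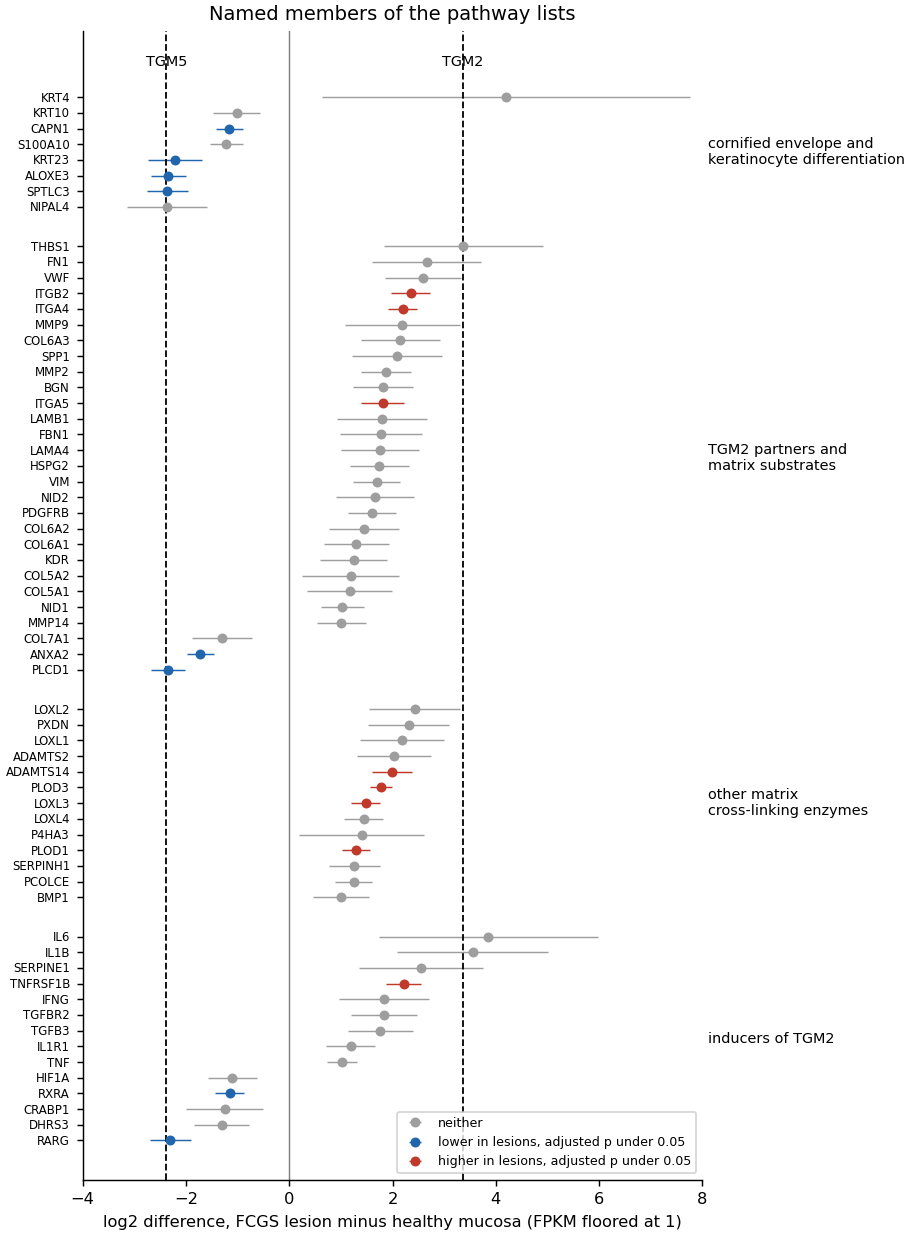
Log2 difference of FCGS lesion minus healthy mucosa (horizontal axis, FPKM floored at 1) for the named members of the 4 pathway lists (vertical axis), with bars for the standard error from limma. Red genes were higher and blue genes lower in lesions at an adjusted p under 0.05, in the fit without the cat as a block. Grey ones passed in neither direction in that fit, though some pass with the block. Dashed lines mark TGM5 at -2.38 and TGM2 at 3.36.

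In fits without the cat as a block, the calls in these 4 lists depended on single animals, as did those over all identifiers. The fit with the block was not repeated with libraries left out. Without the lesion or without the healthy library of Sadie, without both of Jerome or without both of Sadie, limma called 0 members of every list. Over all 13327 identifiers these 4 fits called 1, 9, 0 and 0, in that order, against 1588 in the main fit. At an unadjusted p under 0.05 these 4 fits still held 4 to 6 of 8 genes of the cornified envelope list, 10 to 15 of 28 partners and substrates, 5 to 12 of 13 cross-linking genes and 5 to 8 of 14 inducers. Over all 13327 identifiers they held 2139 to 3276 at that threshold. Without the healthy library of Jerome, limma called 1 partner and no member of the other 3 lists, and 132 of all identifiers. Without both libraries of Bart, in contrast, 21 of the 28 partners and substrates and 9 of the 13 cross-linking genes passed, and 2136 of all identifiers. Since a name required a 2-fold difference in the same samples, no list count is independent evidence of its direction.

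Among the 1927 other named genes, those most like TGM2 over the 6 libraries were TRIB2, CTSH, PLOD3, PREX1 and MOB3A, with Pearson r of 0.993 to 0.995 on log2(FPKM + 0.1). TRIB2 is a pseudokinase, CTSH the lysosomal protease cathepsin H, PREX1 an activator of Rac in leukocytes, and MOB3A a kinase adaptor. CTSH measured 381, 385 and 316 FPKM in the lesions of Bart, Jerome and Sadie, against 118, 142 and 108 FPKM in their healthy mucosa. All 5 stayed the most like TGM2 with the floor of 1 FPKM in place of the added 0.1. For TGM5 the nearest genes were CD59, GNMT, PDCD4, PLXNB3 and MAP3K1, with r of 0.981 to 0.989. CD59 protects cells from complement, GNMT is a methyltransferase, PDCD4 an inhibitor of translation, PLXNB3 a semaphorin receptor and MAP3K1 a kinase. CD59 measured 134, 174 and 167 FPKM in the lesions of Bart, Jerome and Sadie, against 444, 294 and 428 FPKM in their healthy mucosa, with Jerome lowest among healthy biopsies as for TGM5. None of these 5 stayed among the top 5 with the floor of 1 FPKM, where all lesion values of TGM5 are equal. Named genes all differ at least 2-fold between tissues, so much of r is that shared difference, and 334 genes exceeded r = 0.9 with TGM2 and 166 with TGM5. Taken as deviations from the tissue means, r was 0.89 to 0.93 for the 5 genes of TGM2 and 0.85 to 0.92 for those of TGM5, which describes genes already picked for their likeness in the same libraries.

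**Figure D4:**
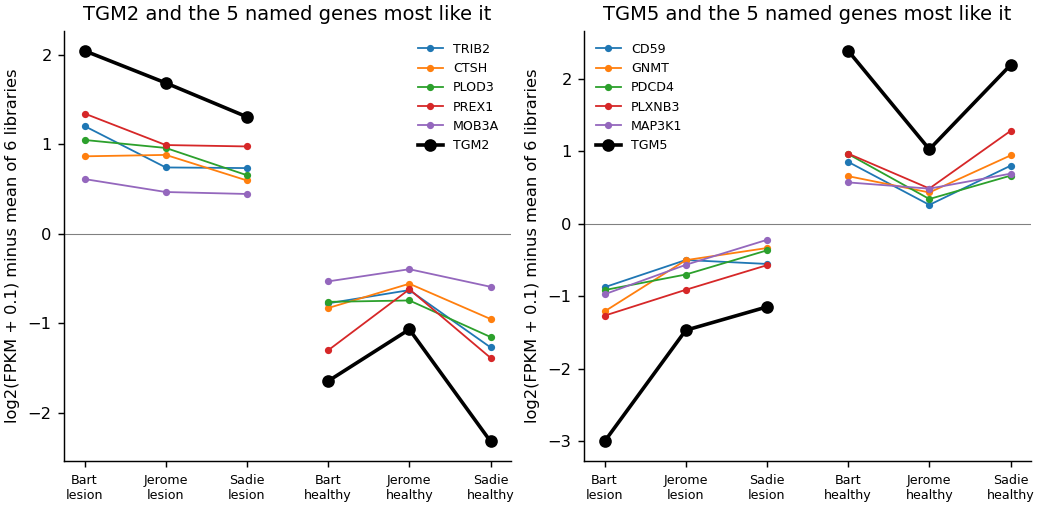
Log2(FPKM + 0.1) minus its mean over the 6 libraries (vertical axis) for TGM2 (left) and TGM5 (right) in black and for the 5 named genes most like each, with lesions left of healthy biopsies on the horizontal axis. Every gene shown with TGM2 is higher, and every gene shown with TGM5 lower, in all 3 lesions than in all 3 healthy biopsies, by smaller steps than the transglutaminase itself.

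Summed markers of other cell types also differed between tissues, but their order among cats matched that of TGM2 and TGM5 only in part. A name required a 2-fold difference between tissues in the same samples, and markers without one could not enter the sums. A difference of the sums was thus favoured in advance and is not independent evidence. The 11 named of 17 endothelial markers summed to 898 to 2164 FPKM in lesions and 221 to 480 FPKM in healthy mucosa, with Bart highest in both tissues, whereas TGM2 was highest in Bart among lesions and in Jerome among healthy biopsies. The 11 named of 17 macrophage markers summed to 1684 to 2260 FPKM in lesions and 298 to 758 FPKM in healthy mucosa, and the 4 named of 17 fibroblast markers to 380 to 1191 FPKM in lesions against 105 to 195 FPKM in healthy mucosa, with Bart again highest in both tissues. Among healthy biopsies Jerome, with the highest TGM2 and lowest TGM5, also had the highest macrophage sum, at 758 FPKM, and the highest sums of T cell markers, at 207 FPKM, and of B and plasma cell markers, at 297 FPKM. Over all cats the 11 named of 15 T cell markers summed to 264 to 729 FPKM in lesions and 74.6 to 207 FPKM in healthy mucosa, and the 9 named of 15 B and plasma cell markers to 452 to 2719 FPKM in lesions against 33.6 to 297 FPKM in healthy mucosa. Among lesions the macrophage, T cell and B and plasma cell sums were all lowest in Bart, where TGM2 was highest. Only 3 of 25 epithelial markers had a name, and they summed to 52.4 to 223 FPKM in lesions and 250.0 to 551 FPKM in healthy mucosa, with the lesion of Bart lowest as for TGM5. The highest epithelial sum among lesions was that of Jerome, whereas TGM5 was highest in Sadie. Healthy biopsies had epithelial sums of 551 FPKM in Bart, 270 FPKM in Sadie and 250.0 FPKM in Jerome, the same order as their TGM5. COL17A1, the collagen of basal keratinocytes, was at 51.4, 114 and 42.7 FPKM in the lesions of Bart, Jerome and Sadie, against 504, 222 and 240 FPKM in their healthy mucosa. COL17A1 was most of each healthy sum and had the order of TGM5 among healthy biopsies, but among lesions it was lowest in Sadie. KRT19 and LAMB3 did not follow COL17A1 in every cat, and neither had the order of TGM5 among healthy biopsies. KRT19, a keratin of simple and basal epithelium, was at 0.0633, 72.8 and 122 FPKM in the lesions of Bart, Jerome and Sadie, against 2.33, 4.63 and 7.63 FPKM in their healthy mucosa. LAMB3, a laminin chain of the epithelial basement membrane, was at 0.980, 35.6 and 12.8 FPKM in the same lesions, against 44.6, 23.7 and 21.7 FPKM in the healthy mucosa. KRT19 was thus higher in the lesions of Jerome and Sadie and LAMB3 in that of Jerome, and neither passed limma (adjusted p = 0.45 and 0.36). No named marker of these lists was at 0 in any library, and the part of these cell types in the TGM2 and TGM5 values was not tested.

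Skeletal muscle RNA differed between biopsies of the same tissue. The 18 named of 23 muscle markers summed to 41.5, 5484 and 4892 FPKM in the lesions of Bart, Jerome and Sadie, against 18.3, 34.4 and 2518 FPKM in their healthy mucosa. In Bart, where both biopsies were low in muscle markers, TGM2 was 12.97 times higher and TGM5 92.2 times lower in the lesion. Leaving out the 3 libraries high in muscle markers gave log2 differences of 3.41 for TGM2 and -2.21 for TGM5, from 1 lesion and 2 healthy libraries.

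**Figure D5:**
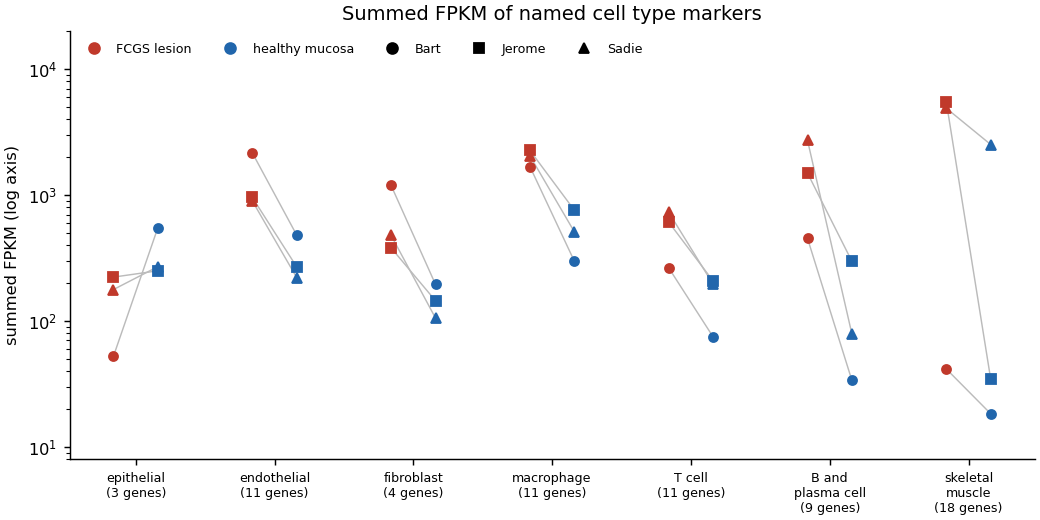
Summed FPKM on a log axis of the named markers of each cell type (horizontal axis, with the number of genes), with FCGS lesions in red left of healthy mucosa in blue and a grey line per cat. Endothelial, fibroblast, macrophage and lymphocyte sums are higher and epithelial sums lower in all 3 lesions, and muscle sums split the libraries across tissues. Of the 3 epithelial markers summed, KRT19 was higher in the lesions of Jerome and Sadie and LAMB3 in that of Jerome. Markers with a name were already 2-fold different in these samples, so the sums are not independent evidence.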

How the data were processed

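RNA of lesion and healthy mucosa from 3 cats was sequenced as 6 libraries, stranded and polyadenylated per the labels. The authors deposited FPKM per library. Cuffnorm, Cufflinks, HISAT and bcl2fastq stand in the submitters' processing notes, without versions. The sources used here give neither build nor annotation. Because FPKM is already divided by length and library size, the values were tested on a log scale and not as counts. The paper gives only an approximate read depth common to all samples, and relative depth, estimated from steps under 0.1 FPKM, differed by up to 1.77 times, if values were scaled by reads alone.

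Symbols came from 1981 rows of the study's supplemental table. To 5 significant digits, the floored values of each row fitted a single identifier. A name needed 3 values above the floor (1929 identifiers), and 328 further rows, of the genes that fell most, were not used. The RefSeq table matched 0 identifiers directly.

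FPKM values were floored at 1 and put on the log2 scale. The 13327 identifiers that reached 1 FPKM in 3 or more libraries entered limma 3.58.1 (R 4.3.3; two-sided, trend option) with a single term for tissue. Benjamini-Hochberg adjustment ran over all of them. The step was tested on simulated data. Summaries were made with pandas 2.3.3 and numpy 2.4.6 in Python 3.11.15, and figures with matplotlib 3.10.9.

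The labels pair both biopsies of a cat by subject. Deviations from the tissue means correlated within a cat at 0.49 (Bart), 0.20 (Jerome) and 0.41 (Sadie), and between cats at -0.44 to 0.27. The lesion of Jerome correlated more with healthy mucosa of Sadie (0.27) than with that of Jerome. Results that change under a block for cat are given with both fits. Members and lists were chosen with earlier results of these data known. The text names the family members, up to 5 members of smallest p per list, any called member against its list's majority, and the 5 genes most like each member. NIPAL4, KRT4, KRT10, FN1, MMP2, IL6, HIF1A, DHRS3, COL17A1, KRT19, LAMB3, PCOLCE and CCNDBP1 and its fellow neighbours were named in addition, after their values were seen.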

Additional observations from a re-analysis of the deposited data

How the results depend on the processing

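TGM2 kept its direction in every alternative, and its log2 difference spanned 3.04 to 3.67 when 1 library or 1 cat was left out. TGM5 kept its direction too, at -2.81 to -2.11 in those fits, and at -3.74 with 0.1 FPKM added and -4.18 with a floor of 0.1 FPKM. With the cat as a block, 1622 identifiers were higher and 1476 lower, against 707 and 881 without it, and the lists gave 20 higher partners and substrates, 10 cross-linking genes and 8 inducers. Without the block, leaving out 1 cat moved the calls over all identifiers to 0 to 1036 higher and 0 to 1100 lower. Leaving out 1 library, also without the block, moved them to 0 to 702 higher and 1 to 733 lower. In those fits the cornified envelope list had 0 to 2 lower and 0 to 1 higher, the partners and substrates 0 to 19 higher (0 to 6 without 1 library) and 0 to 2 lower, the cross-linking genes 0 to 9 higher (0 to 4 without 1 library), and the inducers 0 to 2 higher and 0 to 2 lower. Without the 3 libraries high in muscle markers (chosen after the data were seen) limma called 0 identifiers (2323 at an unadjusted p under 0.05), and 0 members of each list. Only 1 inducer in place of 2 was called lower with 0.1 FPKM added, with a floor of 0.1 FPKM, without a filter and after median or sum scaling. With a floor of 1 FPKM, 0 of the 5 genes most like TGM5 stayed among the top 5. By deviations from the tissue means (chosen after the data were seen) 1 of 5 did for TGM5 and 0 for TGM2. FPKM without read counts give no counting error for the low TGM5 values, and 3 cats of 1 disease limit every comparison.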
